A study of Mus musculus with 25 samples.

Results

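The islets of adult mice that had suckled in small litters were compared with those of mice from control litters at postnatal day 180 (P180). The comparison covered all intervals of the deposited count table on chromosomes 1 to 19, which are 22300 of 22749 intervals, and used 10 of the 25 libraries. The control group (C) held 5 FVB mice reared as 9 pups per litter from P1 to P21, the suckling period. The small-litter group (SL) held 5 FVB mice reared as 4 pups per litter over the same time. Litter size during suckling was the only difference that the labels give between these groups. Islets of both litter groups at P21, with 5 mice each, were used to ask whether a difference lasted, and whole pancreas of 5 control-litter mice at P21, which the submitters put at about 98% exocrine tissue, served as the exocrine reference. The labels give neither the litter of origin nor the sex of a mouse, so animals within a group may be littermates, and the p-values measure only the spread between these animals.

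Pancreatic islets are small endocrine organs in which beta cells, the insulin-secreting cells, are the largest population, beside glucagon-secreting alpha cells and other endocrine cells. Pups of a small litter share the mother's milk with fewer littermates and gain weight faster, which is a standard rodent model of overnutrition in early life. Methylation of cytosine in CpG dinucleotides is copied when cells divide and can persist, so a mark set during suckling could in principle still be present in the adult. In methylation-specific amplification with sequencing (MSA-seq), SmaI cuts its sites where they are unmethylated, and XmaI then cuts the remaining, methylated copies of the same site. Adaptors are joined to the XmaI ends, so an interval between neighbouring sites yields reads when both of its ends are methylated. The count of an interval, given here as counts per 1000000 (CPM) after scaling between libraries, is therefore a relative measure of methylation and has no absolute level. Islets hold several cell types, and a change within one type cannot be told apart from a change in their proportions.

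Total counts ran from 3527467 to 5862511 in the control and from 3593928 to 7080177 in the small-litter libraries at P180. Intervals were 61 to 3000 bp long, and 22207 of the autosomal ones had enough counts to be tested, while 93 did not. Libraries of 1 group differed by more than sampling noise, with chi-square values per degree of freedom from 3.66 to 19.95, so none was a copy of another. A pair of libraries stood apart. Control replicate 3 leaned most towards the exocrine profile, and small-litter replicate 2 had 196 autosomal intervals at 0 counts where the other 4 mice of its group had 7 to 18. The main counts and the values of spread are given with and without them.

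No autosomal interval passed the test for a litter difference at P180. The mean CPM of the intervals had a Spearman correlation of 0.991 between the groups, as a description across intervals, and the median interval stood at 17.4 CPM in control and 17.2 CPM in small-litter mice. In the edgeR quasi-likelihood fit over the 20 islet libraries, 0 intervals passed an adjusted p of 0.05, and the lowest adjusted p was 0.999816. At an unadjusted p under 0.05 there were 196 autosomal intervals, 63 higher and 133 lower in small-litter mice. Over the whole table the unadjusted threshold was passed by 0.887% of 22654 intervals, below the 5% that such a threshold admits where nothing differs. A share below 5% is not added evidence that nothing differs. The fit estimated the spread from the P21 libraries as well, and the standard errors and confidence intervals given below rest on that estimate. A fit of the 10 P180 libraries alone made 0 calls, with 298 autosomal intervals at the unadjusted threshold. DESeq2 also made 0 calls, with 211 intervals at the unadjusted threshold, and limma with library quality weights made 0 calls with 872. Without control replicate 3 and small-litter replicate 2 the counts were 0 and 369. The excess of lower over higher intervals was smaller under another scaling, with 82 higher and 111 lower under size factors of the relative log expression kind. It turned to 59 higher and 46 lower among intervals with a mean of at least 50 counts, and to 142 higher and 91 lower without control replicate 2. The excess was larger in the fit of the 10 P180 libraries alone, with 72 higher and 226 lower. It was also larger with the replicate number as a block (151 and 409) and without small-litter replicate 3 (108 and 252).

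The data bounded the size of any litter difference at most intervals. The median log2 difference, small-litter minus control, was -0.03, and its median standard error was 0.26. The 95% confidence interval of the difference lay within a 2-fold change in either direction at 17092 intervals (77.0%), within a 1.5-fold change at 8739 (39.4%) and within a 4-fold change at 98.2%. Precision followed the counts. Among the 4442 intervals with the fewest counts, the confidence interval lay within a 2-fold change at 42.0%, and among the 4442 with the most counts at 94.9%. Fitted differences over 2-fold were found at 5 intervals towards higher and 78 towards lower values in small-litter mice, and none of these passed the adjusted test. The lower count was 39 without small-litter replicate 2, 227 without small-litter replicate 1 and 42 after removal of each library's trend on interval length.

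**Figure D1:**
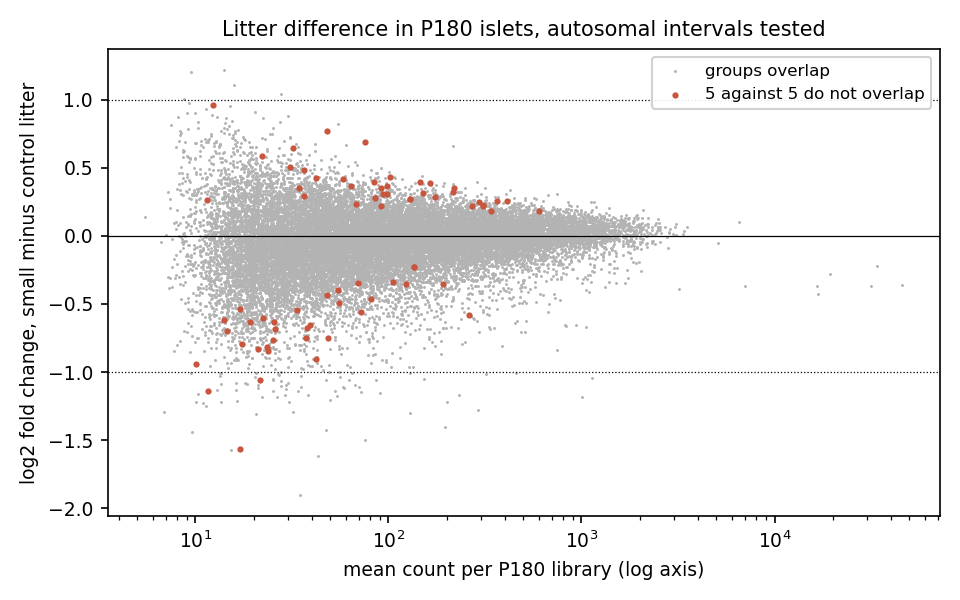
Each point is 1 of 22207 autosomal intervals, with its mean count per P180 library on a log axis and its log2 difference, small-litter minus control, from the edgeR fit. Red points mark the 72 intervals whose 5 small-litter and 5 control CPM values do not overlap, and the dotted lines mark a 2-fold change. The cloud narrows towards high counts, and the 78 intervals below the lower dotted line outnumber the 5 above the upper one.

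The 5 small-litter mice did not overlap the 5 control mice at 72 autosomal intervals, 38 higher and 34 lower. Over the whole table this share was 0.327%, made up of 0.168% higher and 0.159% lower. The median size of the difference at these 72 intervals was 0.42 on the log2 scale against 0.12 over all intervals tested, which the selection for separation makes larger. Fewer mice separate more easily, and the count was 307 (1.38% over the whole table) without control replicate 3, 140 (0.631%) without small-litter replicate 2 and 521 (2.35%) without both, alternatives chosen after seeing the data. The 10 higher and the 10 lower intervals with the smallest p-values among them are described next. They are the extremes of a comparison with no call, and the lowest adjusted p among them was 0.999816.

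The interval with the smallest p-value of all 20 was chr11:115806604-115808380 (mm9). Its level was 4.78, 10.2, 6.03, 8.44 and 5.74 CPM in control replicates 1 to 5 and 10.2, 12.0, 14.1, 13.3 and 12.5 CPM in small-litter replicates 1 to 5. Control replicate 2 and small-litter replicate 1 met at the boundary, and the other mice were well apart. The log2 difference was 0.77 ± 0.20 (SE), with a 95% confidence interval from 0.35 to 1.19 and an unadjusted p of 0.00099 in edgeR. The low side was that of the adult control mice, at 7.03 ± 2.21 CPM (SD, n = 5), since islets at P21 stood at 10.8 ± 1.62 CPM in control and 10.9 ± 0.921 CPM in small-litter mice.

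At chr7:76970704-76972472 the control mice had 4.01 to 6.02 CPM and the small-litter mice 6.82 to 9.81 CPM, a log2 difference of 0.65 ± 0.22. At chr5:136007037-136009461 the control mice had 9.57 to 15.2 CPM and the small-litter mice 16.2 to 25.1 CPM, a difference of 0.69 ± 0.24. At P21 the litter difference at both was smaller than 1 SE. At chr3:132460262-132461863 the control mice had 15.2 to 21.3 CPM and the small-litter mice 23.0 to 26.2 CPM, a difference of 0.43 ± 0.16. That order was the opposite of the one at P21, where control mice averaged 26.8 ± 3.52 CPM and small-litter mice 20.05 ± 3.803 CPM. The same turn was seen at chr1:94741431-94742826, with 39.7 ± 3.57 CPM in control and 51.6 ± 6.02 CPM in small-litter mice at P180 against 55.7 ± 8.96 and 45.4 ± 8.70 CPM at P21.

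Among the more deeply covered intervals of this side, chr2:68129781-68130795 had 45.6, 40.8, 35.7, 42.2 and 33.1 CPM in control mice and 48.4, 53.7, 52.8, 52.0 and 45.9 CPM in small-litter mice. The gap between the groups there was smaller than the range within either, and the log2 difference was 0.32 ± 0.12. At chr1:17390749-17391608 the levels were 78.2 ± 6.98 CPM in control and 95.4 ± 6.45 CPM in small-litter mice, a difference of 0.26 ± 0.11. The interval chr11:76154453-76156686 had the largest difference of the 10, 0.96 ± 0.38, at the lowest level, 1.05 to 2.26 CPM against 2.97 to 3.84 CPM. The remaining intervals of this side, chr8:111102341-111103634 and chr4:140371066-140371768, differed by 0.39 ± 0.15 and 0.48 ± 0.20.

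Of the intervals that were lower in small-litter mice, chr18:37644280-37646646 had the smallest p-value. Control replicates 1 to 5 had 5.91, 5.97, 6.30, 6.75 and 6.84 CPM and small-litter replicates 1 to 5 had 3.28, 2.45, 4.44, 4.54 and 3.42 CPM. The control mice lay within 1 CPM of each other and above every small-litter mouse, and the log2 difference was -0.82 ± 0.24 (unadjusted p = 0.00241, edgeR). At P21 the difference at this interval was 0.22 ± 0.24, of the opposite sign.

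The largest difference of the 10 lower intervals was at chr14:115175847-115178263, with 5.91, 5.97, 4.46, 5.49 and 5.47 CPM in control mice and 3.07, 0.273, 3.06, 1.05 and 1.597 CPM in small-litter mice. The log2 difference was -1.57 ± 0.55. Small-litter replicate 2 was the lowest mouse, at a level below that of 3 counts, and replicates 4 and 5 were also low. At P21 the difference was 1.51 ± 0.70, again of the opposite sign, from 0.605 ± 0.729 CPM in control and 1.76 ± 1.07 CPM in small-litter mice.

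The highest counts of this side were at chr8:124951690-124951911, a short interval at which the groups met within rounding. Its level was 75.1, 54.7, 68.5, 79.2 and 56.4 CPM in control mice and 51.0, 42.8, 54.7, 34.2 and 45.6 CPM in small-litter mice, a log2 difference of -0.58 ± 0.20. After removal of each library's trend on interval length that difference was -0.35. At P21 this interval stood at 58.7 ± 20.5 CPM in control and 58.8 ± 9.92 CPM in small-litter mice. At chr5:116926230-116927735 the control mice had 4.65 to 6.94 CPM and the small-litter mice 2.14 to 4.11 CPM, a difference of -0.83 ± 0.28, and at chr13:50908958-50909271 the ranges were 2.19 to 4.98 and 1.22 to 2.05 CPM, a difference of -1.14 ± 0.34. The other 5 were chr1:167906843-167909617, chr6:23522114-23523934, chr13:22496520-22498912, chr7:29193084-29193377 and chr2:93557372-93559484, with log2 differences from -0.90 to -0.44. At the last of these, control replicates 1 and 2, at 18.8 and 17.6 CPM, stood above the other 3 control mice, which were at 9.08 to 9.85 CPM next to a small-litter maximum of 9.00 CPM.

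**Figure D2:**
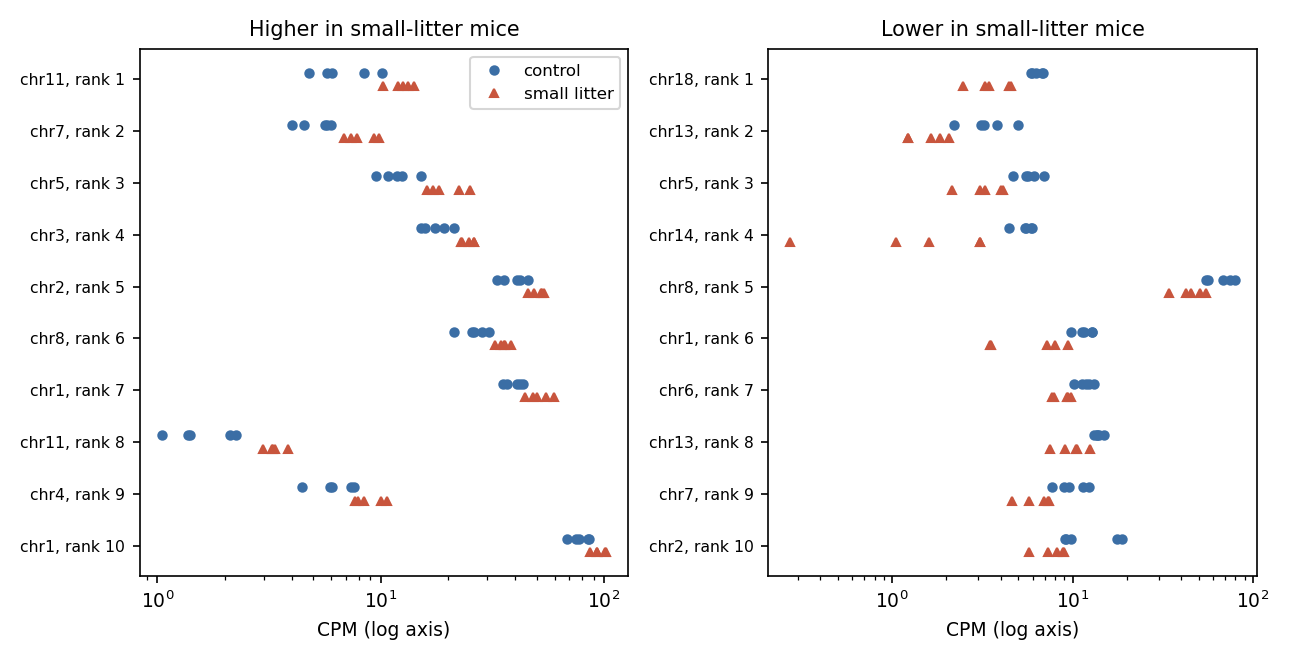
Each row is 1 of the 20 named intervals, labelled by chromosome and by its rank in p-value within its direction, and each symbol is the CPM of 1 P180 mouse on a log axis (circles for control, triangles for small litter, 5 each). Several gaps are narrow: the groups meet at about 10.2 CPM in the first row of the left panel, and at 54.7 CPM in the fifth row of the right panel. The lowest symbol is small-litter replicate 2 on chromosome 14, at 0.273 CPM.

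Among the 4442 shortest intervals (61 to 438 bp) the median log2 difference was -0.16, and all 15 intervals without overlap were lower in small-litter mice. In the next 2 length classes of about the same size (438 to 1443 bp) the medians were 0.00 and 0.03, and all 9 and 10 intervals without overlap were higher. In the 2 classes of longest intervals (1443 to 3000 bp) the medians were 0.00 and -0.02, and the intervals without overlap were 12 higher and 8 lower in the first and 7 higher and 11 lower in the second. Over all 22207 autosomal intervals tested, the groups did not overlap at 0.324%, 38 higher and 34 lower. The difference between length classes was not tested. The shortest 20% of all autosomal intervals took 14.7 ± 1.03% of the autosomal counts in control and 13.3 ± 1.35% in small-litter libraries (SD, n = 5; exact two-sided permutation p = 0.111 over 252 assignments, whose smallest possible p is 0.00794). The part of this share in the 72 intervals was not tested.

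Summing counts over larger units gave the same count of calls. Over 16326 autosomal stretches of adjoining intervals, 4057 of which held more than 1 interval, edgeR made 0 calls, and 131 (0.802%) passed the unadjusted threshold. Over 2221 autosomal windows of 1000000 bp the counts were 0 and 11 (0.495%), and the confidence interval lay within a 2-fold change at 93.2% of windows. The groups did not overlap at 2 of these windows (0.0900%), and 1 of them is described first. The window that holds 2 intervals between chr7:76232495 and 76972472, one of them among the 20 named above, had 6.59 to 10.3 CPM in control and 10.4 to 15.3 CPM in small-litter mice, a log2 difference of 0.63 ± 0.20. A window of 19 intervals between chr10:75014020 and 75936505 had 1195 ± 39.8 CPM in control and 1320 ± 114 CPM in small-litter mice. The log2 difference was 0.14 ± 0.06 (unadjusted p = 0.0305, edgeR), and the groups overlapped there. In the other direction, 2 adjoining intervals at chr8:87596119-87598231 had 18.5, 15.7, 13.7, 24.97 and 15.9 CPM in control and 12.6, 10.8, 8.76, 5.31 and 11.6 CPM in small-litter mice, a difference of -0.87 ± 0.29. No small-litter mouse reached the lowest control mouse there. The share of counts on each of the 19 autosomes did not pass an exact permutation test on any chromosome, with a lowest adjusted p of 0.528. The smallest p that 5 against 5 mice can give is 0.00794, so 1 chromosome with separated groups could not have passed after adjustment over 19.

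The litter contrasts at weaning and at P180 were set side by side to ask whether a difference lasted. The mice of each age were different animals, so the contrasts share no sample. Across the autosomal intervals the log2 litter differences at P21 and at P180 had a Pearson correlation of -0.06 and a Spearman correlation of -0.01, given as a description, and the sign was the same at 49.5% of intervals. The 50 intervals with the smallest p-values among those higher in small-litter mice at P21 had a median difference of 0.72 there and 0.04 at P180, with the same sign at 27 of 50. The 50 lower ones had medians of -0.57 and -0.01, with the same sign at 28 of 50. At P21 itself 203 autosomal intervals passed the unadjusted threshold (0.927% over the whole table) and 0 the adjusted one. A test of whether the litter difference itself changed between the ages made 0 calls in edgeR, with 218 autosomal intervals at the unadjusted threshold (0.998%).

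Of the 22207 autosomal intervals tested, 203 passed the unadjusted threshold at P21 and 196 at P180. The lists shared 7 intervals, an overlap that was not tested, and 1 of the 7 had the same sign at both ages. At this one, chr17:47606027-47608111, control mice had 23.4, 15.8, 21.8, 22.4 and 21.9 CPM at P180 and small-litter mice 18.03, 15.3, 17.3, 17.1 and 16.7 CPM. Of the 5 control mice, 4 stood above all small-litter mice and replicate 2 among them. The log2 difference was -0.34 ± 0.16 at P180 and -0.36 ± 0.16 at P21, where control mice averaged 20.2 ± 3.44 CPM and small-litter mice 15.5 ± 2.29 CPM. Its adjusted p at P180 was 0.999816. Of the 72 intervals without overlap at P180, 33 had the same sign at P21.

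No difference in the spread between mice was detected between the litter groups when all 10 mice were used. The median standard deviation of log2 CPM among 5 mice was 0.32 in the small-litter and 0.34 in the control group, and it was larger in small-litter mice at 46.3% of intervals. A limma test on the absolute deviations from the group mean made 0 calls, with a lowest adjusted p of 0.294. At an unadjusted p under 0.05 there were 493 intervals wider in small-litter and 735 wider in control mice (5.53% over the whole table). The direction of that split turned in the fit of the 10 P180 libraries alone, with 957 wider in small-litter and 714 wider in control mice. With deviations taken from the group median the counts were 35 and 98. The common biological coefficient of variation, the spread beyond counting error, was 26.9% in the small-litter and 24.06% in the control group, a ratio of 1.116. Islets at P21 had 36.05% and 33.3%, so both adult groups had lower values than either group at weaning.

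These figures depended on single mice. Without control replicate 3, the median standard deviation of the control group was 0.25. In the fit without that mouse the coefficients of variation were 26.5% in the small-litter and 15.8% in the control group, a ratio of 1.68, and 67.6% of intervals were wider in small-litter mice. Without small-litter replicate 2 the median standard deviation of that group was 0.31, and the coefficients in that fit were 25.1% and 24.3%. With both left out they were 25.1% and 15.4%, a ratio of 1.63, and 66.1% of intervals were wider in small-litter mice. The spread test still made 0 calls without control replicate 3, without small-litter replicate 2 and without both. It made 25 to 31 calls when any one of control replicates 1, 2, 4 or 5 was left out, nearly all wider in control mice. On counts simulated for 5 mice per group, with spread added in small-litter mice only, this test made more false calls than its threshold allows. No mouse was left out there, so that result does not measure the false calls among these 25 to 31.

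**Figure D3:**
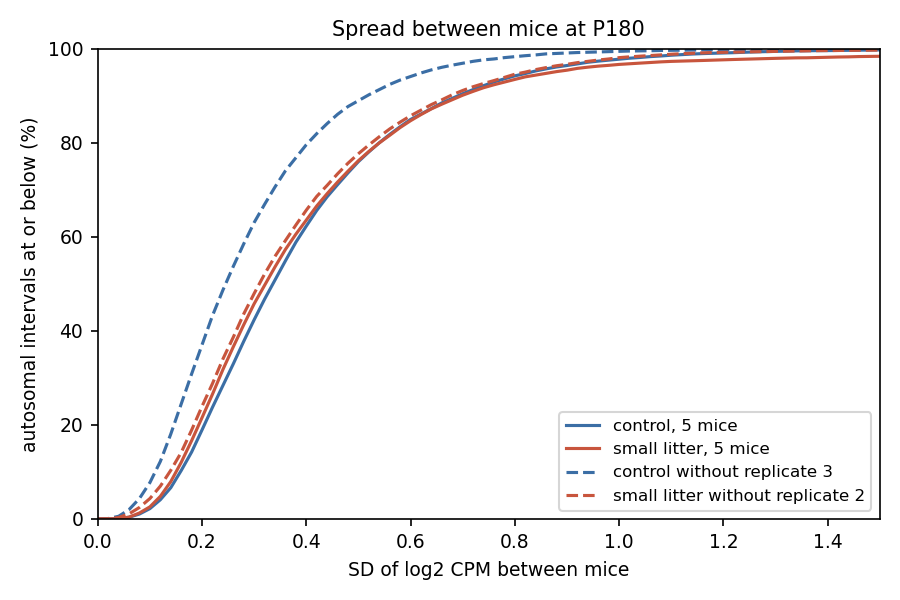
Cumulative share of autosomal intervals (percent) at or below a given standard deviation of log2 CPM between mice, for each litter group at P180. The solid curves of the 5 control and the 5 small-litter mice lie close together, with medians of 0.34 and 0.32. The control curve without replicate 3 moves to the left, to a median of 0.25, and the small-litter curve without replicate 2 hardly moves.

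The distance of each mouse from the other 4 of its group gave the same picture in 1 value per animal. It is the root mean square over intervals of the difference in log2 CPM. The control replicates 1 to 5 had 0.403, 0.372, 0.768, 0.467 and 0.406, and the small-litter replicates had 0.518, 0.755, 0.603, 0.485 and 0.418. Each group had 1 mouse near 0.76, and the remaining small-litter mice lay at or above most of the remaining control mice. The means were 0.483 ± 0.163 and 0.556 ± 0.130 (SD, n = 5), and the difference was 0.073 (exact two-sided permutation p = 0.429). Without control replicate 3 the difference was 0.165 (exact permutation p = 0.0159), and without that mouse and small-litter replicate 2 it was 0.104 (exact permutation p = 0.0571). These mice were chosen after seeing the data and had the largest distances of their groups. Leaving out control replicate 3 takes the farthest mouse from the control side, so that p-value does not support a wider spread in small-litter mice. With any 1 mouse left out, the exact permutation p ran from 0.0159 to 0.889. Each mouse enters the mean from which the others of its group are measured, so the distances are not independent and these p-values are approximate. Leaving out a mouse also changes the distances of all others in its group. The mean distance between mice was 0.615 within the control group, 0.706 within the small-litter group and 0.649 between the groups. Without control replicate 3 and small-litter replicate 2 these values were 0.478, 0.614 and 0.552. With all mice, 5 of 10 lay farther from the other group than from their own. These were control replicates 1, 2, 4 and 5 and small-litter replicate 2.

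**Figure D4:**
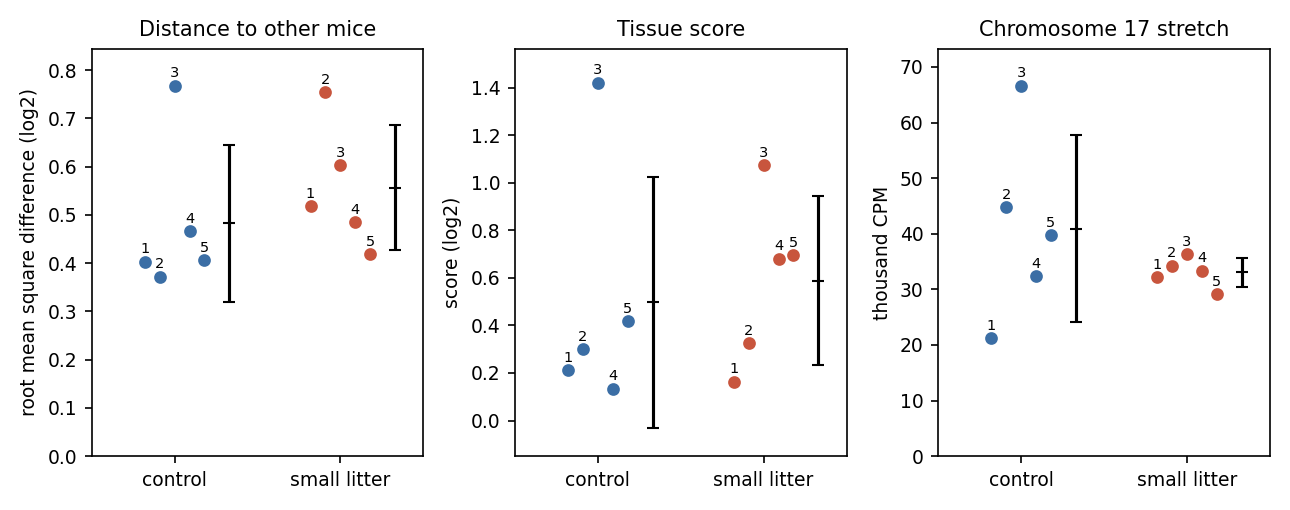
One point per P180 mouse, numbered by replicate, with the mean and SD of 5 mice as a bar beside each group. The left panel plots the distance of a mouse from the other 4 of its group (log2), the middle panel its score towards exocrine pancreas (log2), and the right panel its level on the chromosome 17 stretch (in 1000 CPM). Control replicate 3 is the highest control mouse in all 3 panels, at 0.768, 1.42 and 66606 CPM, and small-litter replicate 2 is the highest of its group in the left panel only.

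A standard deviation over 1 on the log2 scale was found at 740 intervals in the small-litter and 487 in the control group, 82 of them in both. In each group 1 mouse was the farthest from the others at most of these widely spread intervals. Small-litter replicate 2 was the farthest mouse at 518 of the 740, and the low one at 517 of these. Control replicate 3 was the farthest at 402 of the 487 and low at 400. Of the 402, 187 belong to the intervals with less signal in exocrine than in islet tissue at P21, which are 3101 of the 22207 tested. Without those mice, 420 intervals in the small-litter and 116 in the control group had a standard deviation over 1.

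Small-litter replicate 2 stood low at a set of 313 intervals, each more than 8-fold below the mean of the other 4 small-litter mice. It was under 1 CPM at 257 of them, but had 20.2 CPM at chr4:99029360-99029758, where the other P180 mice had 152 to 220 CPM. The median level over this set was 0.273 CPM in that mouse, 12.9 to 20.9 CPM in the other 4 small-litter mice and 14.4 to 20.5 CPM in the 5 control mice at P180. The set was spread over all 19 autosomes and was short, with a median length of 360 bp and 87.9% under 1000 bp, against 44.0% of all tested intervals. At chr4:56501956-56502405 this mouse had 0.273 CPM where the other P180 mice had 116 to 159 CPM, and at chr2:19593482-19594209 it had 2.73 CPM where the others had 131 to 223 CPM. No other P180 mouse had a set of this size: control replicate 3 had 47 such intervals, small-litter replicate 4 had 10, control replicate 5 had 8, and each of the remaining mice had at most 2.

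The same intervals were also low in some mice at weaning, in both litter groups. Small-litter replicate 1 at P21 had 1091 such intervals, and 281 of them were in the set, which is 89.8% of the set and 25.8% of that mouse's own list. Control replicate 3 at P21 had 352, of which 227 were in the set (72.5% of the set and 64.5% of its list), and control replicate 1 at P21 had 83, of which 72 were in it. The median level over the set was 0.306, 0 and 1.71 CPM in these 3 mice and 13.5 to 27.5 CPM in the other 7 islet mice at P21. All 5 exocrine samples had 11.01 to 14.7 CPM. Across the 25 libraries the levels lay in separate ranges, with 4 libraries at or under 1.71 CPM and the other 21 at 11.01 CPM or more. Small-litter replicate 2 at P180 is low by selection, since it defined the set. The 3 low libraries at P21 had the smallest totals of the 25, at 2912624 to 3140503 counts. Small-litter replicate 2 at P180 had 3593928. Small-litter replicate 4 at P21 and control replicates 1 and 5 at P180 had less, at 3340241 to 3541566, and were not low. The part of depth was not tested. None of the intervals named above for a litter difference is in the set.

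**Figure D5:**
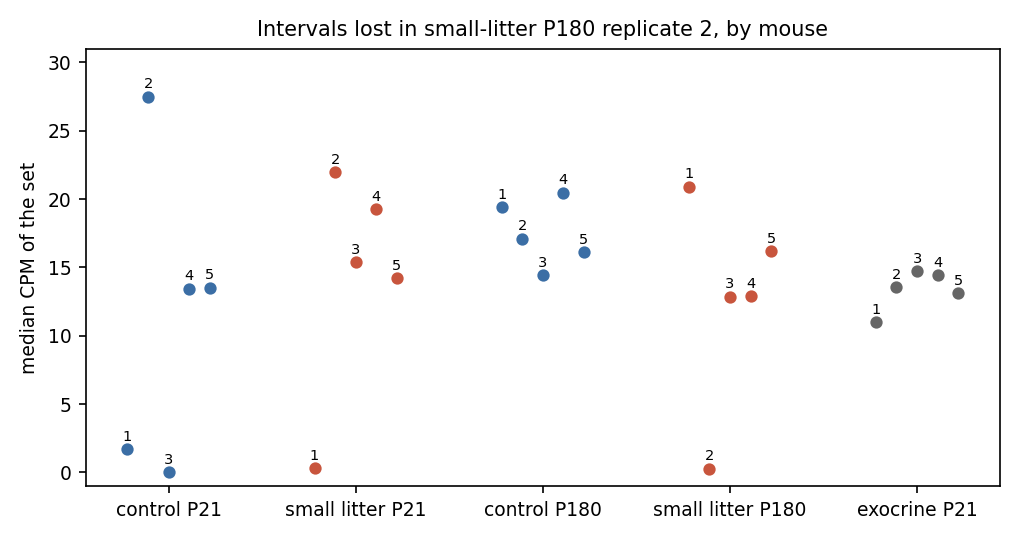
Median CPM over the 313 intervals at which small-litter replicate 2 at P180 had more than 8-fold less signal than its group, for each of the 25 libraries, numbered by replicate and placed by group. That library lies at 0.273 CPM, control replicates 1 and 3 at P21 and small-litter replicate 1 at P21 lie at 0 to 1.71 CPM, and the other libraries lie between 11.01 and 27.5 CPM.

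Control replicate 3 was the mouse that leaned most to exocrine tissue. The score, the mean log2 CPM over 1759 intervals higher in exocrine tissue at P21 minus the mean over 3101 intervals lower in it, was 2.30 ± 0.19 in the exocrine samples. At P180 it was 0.21, 0.30, 1.42, 0.13 and 0.42 in control replicates 1 to 5 and 0.16, 0.33, 1.07, 0.68 and 0.69 in small-litter replicates 1 to 5. The third replicate was the highest in both groups, and all 10 mice were below the exocrine samples. The group means were 0.50 ± 0.53 and 0.59 ± 0.36 (SD, n = 5; exact two-sided permutation p = 0.762). The mean absolute deviation from the group median was 0.298 in control and 0.256 in small-litter mice, a difference of -0.043 (exact permutation p = 0.913). This difference was 0.163 without control replicate 3 (exact permutation p = 0.198). At the 3101 exocrine-lower intervals the median standard deviation was 0.47 in control and 0.41 in small-litter mice, and 0.27 in control mice without replicate 3. The part of admixed exocrine DNA in these values was not tested.

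The 5 intervals with the smallest p-values for a wider spread in control mice included 3 that were lower in exocrine tissue. Of all 22207 autosomal intervals tested, 3101 were of that class. At chr12:73770916-73772139 control replicate 3 had 16.8 CPM, the other 4 control mice 40.2 to 42.6 CPM and the 5 small-litter mice 39.0 to 43.6 CPM, while the exocrine samples had 23.8 ± 7.58 CPM. At chr1:138808016-138808994 the control mice had 36.0, 44.7, 15.0, 29.1 and 20.2 CPM and the small-litter mice 26.7 to 37.1 CPM. Control replicate 3 was the lowest at both. At chr18:64170094-64171954 replicates 3 and 5 were low, at 4.20 and 5.20 CPM against 12.9 to 16.3 CPM in the other control mice. The remaining pair showed other orders: at chr3:38467107-38468305 control replicate 3 was the highest mouse, at 33.6 CPM, and at chr8:46123718-46126058 control replicates 1 and 4 were low, at 0.563 and 2.74 CPM.

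The 5 intervals with the smallest p-values for a wider spread in small-litter mice did not single out replicate 2. At chr10:75176448-75178004 the control mice had 45.9, 50.2, 52.7, 49.4 and 47.6 CPM and the small-litter mice 42.6, 51.0, 55.0, 31.8 and 58.4 CPM. At chr7:142680073-142681609 the control mice had 28.5 to 34.7 CPM and the small-litter mice 23.2, 18.8, 28.9, 9.42 and 32.6 CPM. Small-litter replicate 4 was the lowest mouse at both, and also at chr2:27244328-27246536, where it had 3.14 CPM and replicate 5 had 16.9 CPM against 6.78 to 10.1 CPM in control mice. At chr19:45384589-45387467 replicate 4 was instead the highest, at 7.33 CPM, and replicate 5 the lowest, at 1.37 CPM. At chr17:31658540-31660046 replicates 4 and 5 were both near 0.5 CPM, at about the level of 3 counts, while replicate 3 had 5.67 CPM. None of these 10 intervals passed the adjusted test.

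A stretch of 8 adjoining intervals at chr17:39979252-39985652, singled out after its values were seen, held the 5 highest intervals of the table. Its values spread more in control mice, but none of the 8 intervals passed the spread test (lowest adjusted p 0.869, limma). It had 21249, 44759, 66606, 32319 and 39735 CPM in control replicates 1 to 5 and 32190, 34243, 36317, 33345 and 29108 CPM in small-litter replicates 1 to 5. The range was 3.13-fold in control and 1.25-fold in small-litter mice, and all small-litter values lay inside the control range. Without control replicate 3 the control range was 2.11-fold. At P21 the range was 2.12-fold in control and 2.04-fold in small-litter mice, and in the exocrine samples 7.41-fold. The stretch took 4.10 ± 1.44% of the counts in control and 3.33 ± 0.155% in small-litter mice, while the rest of chromosome 17 took 5.49 ± 0.0401% and 5.52 ± 0.0499%. The wider spread of the chromosome 17 share in control mice, with an SD of 1.38 against 0.167 percentage points, lay in this stretch, and without control replicate 3 the SD was 1.05. At its highest interval, chr17:39983065-39983497, the levels were 10889 ± 4658 CPM in control and 8615 ± 1139 CPM in small-litter mice. How far the level of this stretch, and its spread between mice, reflects methylation was not tested.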

How the data were processed

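MSA-seq libraries were made from genomic DNA digested with SmaI and then XmaI, per the labels' protocols. Reads were handled with cutadapt, Bowtie 0.12.9 and FastQC 0.10.1 on build mm9, per the submitters' processing notes. The authors deposited raw read counts per interval, with no normalization. The handling of PCR duplicates is not given in the sources used here, so reads are not independent molecules. Positions are as the table gives them. Intervals were not assigned to genes, since no annotation of mm9 was used.

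The members, the lists and the tests were chosen with earlier results of these data known. The whole table was filtered with filterByExpr (22654 intervals), scaled by TMM and fitted over the 20 islet libraries with edgeR 4.0.16 in R 4.3.3 (robust quasi-likelihood, Benjamini-Hochberg over the whole table, threshold 0.05). The CPM printed use TMM factors of all 25 libraries, and log2 CPM has a prior count of 2. Spread was tested with limma 3.58.1 on absolute deviations. Exact permutation tests of values per mouse ran over 252 assignments, or fewer where a mouse was left out. A lost interval was over 8-fold below the other 4 mice on log2(CPM + 0.5). Alternatives were DESeq2 1.42.0, limma voom weights, other scalings and filters, removal of length trends (lowess, span 0.3), the tissue score as covariate, and each mouse left out. Figures used matplotlib 3.10.9.

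Named intervals were the 10 higher and 10 lower with the smallest p-value among those without overlap, 5 per direction for spread, those with the same sign at both ages at the unadjusted threshold, the leading stretches and windows, the 5 highest, and the 5 most even with a mean of at least 50 counts.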

Additional observations from a re-analysis of the deposited data

Results flagged for a closer look

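In 98 groups of 5 values, 8 had 1 mouse whose gap to the nearest other, divided by the range, exceeded 0.71, which chance does in about 1 group in 20 where values are not selected. Most of these groups are named intervals, chosen from the same values, so that rate does not apply to them. Of these, 4 were control replicate 3 at P180. Its tissue score was 1.42 where the other control mice had 0.13 to 0.42, and its distance from the other control mice was 0.768. It had 16.8 CPM at chr12:73770916-73772139, the lowest of its group, and 7927 CPM at chr17:39981183-39981602, the highest. Small-litter replicate 2 had 196 autosomal intervals at 0 counts. Control replicate 4 had 16.5% of its counts in the shortest 20% of autosomal intervals, against 14.0 to 14.6% in the other control mice. Control replicate 2 had 15.8 CPM at chr17:47606027-47608111, the lowest control value at the interval that had the same sign at both ages. Small-litter replicate 5 had 6630 CPM at chr17:39983065-39983497, below the other small-litter mice.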

How the results depend on the processing

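The litter test, the test of the change with age, and the tests on stretches and windows made 0 calls under every alternative run, and the log2 differences of the 20 intervals named for litter and of the 1 with the same sign at both ages kept their sign wherever they were tested. With the replicate number as a block there were 0 calls for litter, for its change with age and for spread, and 560 autosomal intervals at an unadjusted p under 0.05 for litter. Without the block that unadjusted count was 196. Deviations of same-numbered mice correlated at 0.293, 0.0345, 0.561, 0.249 and 0.114, all above the median of -0.0506 between mice of different numbers. Of 5 mice, 2 matched their own number best. The main fit did not pair mice by number, and whether mice of a number share something was not tested. Leaving out 1 mouse at a time, the unadjusted count ran from 139 to 396, the calls for spread from 0 to 31, the difference in distance from 0.0146 to 0.165, the ratio of coefficients of variation from 0.984 to 1.68, and the difference in deviation of the tissue score from -0.117 to 0.163. The ratio was 0.998 without control replicate 1 and 0.984 without small-litter replicate 3. The tissue score difference was 0.0212 without small-litter replicate 4, 0.0176 without replicate 5 and 0.139 without control replicate 3 and small-litter replicate 2, an alternative added after seeing the data. The share of intervals wider in small-litter mice ran from 38.4% to 67.6% with 1 mouse left out, against 46.3% with all, and passed 50% without control replicate 3 (67.6%) and without both (66.1%). The cause was not tested. Spread taken from the group median gave 0 calls and 133 intervals at an unadjusted p under 0.05, against 1228. Depth limits the litter result most at the intervals with the fewest counts.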

Other observations

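Some intervals were nearly even between the 10 adult mice. Among intervals with a mean of at least 50 counts, the 5 with the lowest coefficient of variation ranged from 4.51% to 5.20%. At chr5:121229896-121230503 the control mice had 72.0, 68.3, 71.9, 70.1 and 71.4 CPM and the small-litter mice 67.0, 68.2, 74.3, 63.3 and 68.0 CPM. At chr19:56983520-56985240 the ranges were 43.3 to 46.9 and 43.5 to 49.1 CPM, and at chr6:124998917-124999694 they were 127 to 142 and 123 to 138 CPM. At chr6:28885472-28886169 the control mice had 204 ± 9.03 CPM and the small-litter mice 217 ± 9.70 CPM. Evenness in adults did not extend to every age, since small-litter mice at P21 had 57.2 ± 24.7 CPM at the first of these. At chr4:45823426-45824412 the adult groups had 42.3 ± 2.30 and 41.2 ± 1.75 CPM, while the P21 groups had 28.5 ± 3.35 and 31.7 ± 4.06 CPM.

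Libraries also differed in their trend on interval length. The correlation of a mouse's deviation with length ran from -0.253 to 0.293 in control and from -0.415 to 0.230 in small-litter mice at P180, each mouse's deviation being taken from its own group.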
